A study of Homo sapiens with 10 samples.

Results

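Positions 3900 to 4179 of human 28S rRNA were examined in RibOxi-seq libraries of PA1 cells, a human teratocarcinoma line. The stretch is defined by its position, not by a measured value, and holds 280 of the 6939 rRNA positions counted in the series, or 4.04%. The numbering gives 0 to the base that opens 28S. On GRCh37 (hg19) the stretch lies on the plus strand at chrUn_gl000220:117248-117527, inside the 28S part of an rDNA repeat, which is transcribed as a noncoding RNA. An identical second copy lies on the same contig at 161220 to 161499, and reads from either copy cannot be told apart. Of 106 known 2′-O-methylation sites in 18S and 28S, 4 lie here, namely U3924, G3943, a site listed as G4043, and C4053. That is 1.43 known sites per 100 positions, against 1.53 over both rRNAs.

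Total RNA of PA1 cells was cut with Benzonase, a nuclease, in all groups. In oxidized libraries, periodate oxidation and β-elimination then removed 3′-terminal nucleosides that carry a free 2′-OH, and after dephosphorylation a final oxidation blocked such ends from ligation. Control RNA skipped these steps up to ligation, so fragments with unmethylated ends could enter them as well. On the NextSeq there were 3 control and 3 oxidized libraries, with passage 6 cells behind replicates 1 and 2 of each group and passage 4 cells behind replicate 3. A pilot on the MiSeq, made from a low amount of RNA, had 2 control and 2 oxidized libraries, all from passage 7. The labels do not say whether the libraries of a group came from separate cultures, so p-values measure only the spread between these libraries, which may be technical.

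Total counts ranged from 72458614 to 80964624 in NextSeq control libraries, from 12293410 to 13694386 in NextSeq oxidized, from 30392418 to 44061905 in MiSeq control and from 1353768 to 1568883 in MiSeq oxidized libraries. The control totals exceed the number of reads that the study gives as sequencer output, for a reason not given in the sources used here. Low counts come in steps of about 50, so a single count is not a read, and a step of 50 is 3.65 to 4.07 CPM (the count over the library total, times 1000000) in NextSeq oxidized and 31.9 to 36.9 CPM in MiSeq oxidized libraries. NextSeq control replicate 3 stood apart from replicates 1 and 2. Over the 280 positions, Spearman's rho between counts of control replicates 1 and 2 was 0.985, and that of either with replicate 3 was 0.450 and 0.446. The MiSeq oxidized libraries differed by no more than sampling noise when counted in steps of 50 (chi-square per degree of freedom 1.05 over 735 positions, p = 0.150). They are the only pair of their group and were kept as 2 libraries. For NextSeq control replicates 1 and 2 this ratio was 1.078 over 227 positions of the stretch and 1.134 over 5623 positions of both rRNAs. Fits without control replicate 3 thus take the control spread from libraries that differed by little more than sampling noise. Over the stretch it was 1.255 for NextSeq oxidized replicates 2 and 3, and 2.22 and 1.65 for replicate 1 with replicates 2 and 3.

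2′-O-methylation adds a methyl group to the ribose of a nucleotide. In rRNA it is laid down by fibrillarin, the methyltransferase of box C/D small nucleolar ribonucleoproteins. A guide snoRNA pairs with the rRNA, and the nucleotide that pairs with the fifth base upstream of the snoRNA's box D or D′ is the target. A methylated ribose also resists nuclease cleavage at its 3′ side, and it becomes the 3′-end of a fragment once the nucleoside after it has been removed.

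The rRNA around the sites and the guides named for them are shown because the counted target of one guide is not the listed position. Each window covers 12 bases on either side of the position, read from GRCh37 on the plus strand, with the position in capitals and T standing for U.
U3924, chrUn_gl000220:117260-117284: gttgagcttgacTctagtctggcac
G3943, chrUn_gl000220:117279-117303: tggcacggtgaaGagacatgagagg
G4041, chrUn_gl000220:117377-117401: ctgcgggccgccGgtgaaataccac
listed G4043, chrUn_gl000220:117379-117403: gcgggccgccggTgaaataccacta
C4053, chrUn_gl000220:117389-117413: ggtgaaataccaCtactctgatcgt
The reference base at the listed G4043 is U (G4043U, listed base, position in 28S counted from 0, reference base), so the position is called U4043 from here on.

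The guide stretches below were sought in each named snoRNA and, for U75, in GAS5. Each is the longest run that pairs without a mismatch with the rRNA near the listed site. They are written 5′ to 3′ from GRCh37, with the base that faces the counted target in capitals.
SNORD52 (U52), chr6:31804869-31804880, plus strand: cagactagAgtc
SNORD111 (HBII-82), chr16:70571938-70571949, plus strand: tcatgtctCttc
SNORD111B (HBII-82B), chr16:70563435-70563446, plus strand: tcatgtctCttc
SNORD102 (U102), chr13:27829252-27829262, plus strand: atttcacCggc
U75 stretch in GAS5, chr1:173836051-173836060, minus strand: agagtaGtgg
The first 4 stretches lie inside annotated snoRNA genes. The U75 stretch was found within GAS5, the host gene of SNORD75, and overlaps an annotated exon of GAS5. It was picked as the longest match to the rRNA around C4053, so its pairing near that site follows from the search. The annotated SNORD75 entries, on chromosomes 2 and 4, had runs of 5 bases only. The runs are 12, 12, 12, 11 and 10 bases long, and each is followed by 1 unpaired base and a box. The box reads CTGA in both SNORD111 genes and SNORD102, CCGA in SNORD52 and CAGA after the U75 stretch. Counted from the box, the targets are U3924 for SNORD52, G3943 for both SNORD111 genes and C4053 for the U75 stretch, as listed. For SNORD102 the counted target is G4041, which lies 2 nt before the listed U4043. This is a reading of the sequences and was not tested on the RNA.

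The stretch took up a similar part of all counts before and after oxidation, while the distribution within it changed. In the NextSeq libraries it held 3.04%, 3.04% and 5.17% of all counts in control replicates 1, 2 and 3, and 2.72%, 2.89% and 2.88% in the oxidized replicates. The exact two-sided permutation test over libraries gave p = 0.10, the smallest that 3 against 3 libraries allow. The MiSeq share was 6.78% and 6.98% in control and 7.32% and 7.29% in oxidized libraries. The NextSeq oxidized libraries lay below all controls and the MiSeq oxidized ones above, and without control replicate 3 the NextSeq difference in means was -0.209 percentage points in place of -0.919.

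The 4 known sites took most counts of the stretch after oxidation. They held 0.130%, 0.209% and 1.08% of the counts of the stretch in NextSeq control replicates 1, 2 and 3, and 91.1%, 90.8% and 92.2% in the oxidized replicates. The means were 0.474% ± 0.530 (SD, n = 3) and 91.4% ± 0.728 (SD, n = 3), and the exact permutation test again gave its smallest p of 0.10. Their MiSeq share was 0.393% and 0.354% in control and 65.3% and 67.0% in oxidized libraries. For comparison, the 106 known sites held 94.8% to 95.2% of all counts in NextSeq oxidized libraries and 59.2% to 59.3% in MiSeq oxidized libraries. Nearly all of the known-site counts of the stretch came from U3924 and G3943.

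Per position, oxidized and control libraries were compared by the quasi-likelihood test of edgeR, fitted to the whole of 18S and 28S, and p-values were adjusted over that whole table (Benjamini-Hochberg). To be called higher, a position needed an adjusted p under 0.05 together with a log2 fold change of more than 7. The fold change threshold is that of the study, whose adjusted p threshold was 0.0001. The study fitted its filters to the weakest known sites of the same NextSeq libraries. Calls at known sites therefore follow in part from that choice and are not independent support. The looser 0.05 was taken because, in earlier results of these data, no position reached 0.0001 in this test. In the NextSeq libraries 3 of 279 tested positions (1.08%) were called higher, namely U3924, G3943 and C4053, against 1.53% of all positions tested. The same 3 positions were called on the MiSeq, of 278 tested (1.08%), against 2.36% of all positions. U4043 was the known site not called in either experiment. Over both rRNAs, 97 of 106 known sites were called in the NextSeq and 86 of 106 in the MiSeq libraries. The 3 called positions are all known sites. Groups that did not overlap in CPM, with the oxidized libraries higher, were found at these 3 positions (1.08%) in the NextSeq libraries, against 1.65% of all positions, and at 35 (12.6%) in the MiSeq libraries, against 14.4%.

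The scale of these fold changes depends on the normalization. With TMM, the median log2 fold change over all positions was -2.25 in the NextSeq and -4.76 in the MiSeq libraries, and with library totals alone it was -6.26 and -4.98. The medians over the stretch were -3.09 and -3.65 with TMM. Levels are therefore given as CPM, which are scaled to library totals, and fold changes as log2 values of the TMM fit with their standard error, taken as the log2 value divided by the square root of the test statistic. With library totals alone, G3943 was the position of the stretch called higher in the NextSeq libraries, since U3924 (log2 fold change 5.43, adjusted p = 0.0321) and C4053 (5.62, adjusted p = 0.0897) lay below the threshold of 7.

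**Figure D1:**
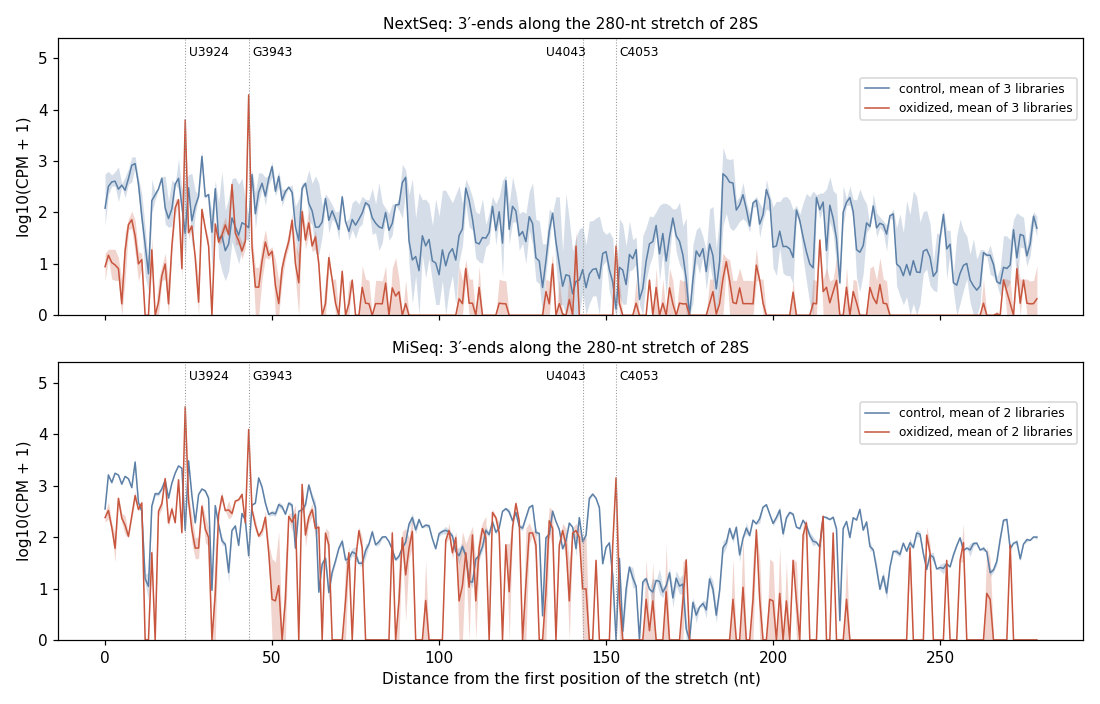
Level of 3′-ends along the 280 positions, as log10 of CPM plus 1 against the distance in nt from the first position, for NextSeq (top) and MiSeq (bottom) libraries. Lines are means over libraries of the log values, shaded bands the range over libraries, and dotted lines the 4 known sites. After oxidation U3924 and G3943 stand far above the rest in both experiments, and C4053 stands clear of its neighbours in the MiSeq libraries.

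U3924, the target of SNORD52, was far higher in the oxidized libraries of both experiments. In the NextSeq control libraries it had 709, 959 and 31710 counts, and in the oxidized libraries 85262, 75504 and 88122. Its MiSeq counts were 5727 and 4164 in control and 53811 and 46678 in oxidized libraries. Control replicate 3 was the high one among the controls, at 420 CPM against 9.78 and 11.8 CPM. In CPM the oxidized libraries lay at 6339 ± 171 (SD, n = 3) on the NextSeq and at 34390 ± 128 (SD, n = 2) on the MiSeq, and did not overlap with their controls. The log2 fold change was 9.98 (SE 1.72, adjusted p = 0.0359) in the NextSeq and 8.27 (SE 0.242, adjusted p = 0.00555) in the MiSeq libraries. Without control replicate 3, the NextSeq value was 12.84 (SE 0.210, adjusted p = 1.03e-04), and with the passage 6 libraries alone, an alternative chosen after seeing the data, it was 12.84 as well (adjusted p = 0.00594). Among the 106 known sites, U3924 ranked 20th by mean oxidized CPM in the NextSeq and 2nd in the MiSeq libraries.

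G3943, 19 nt downstream of U3924 and the target of the SNORD111 pair, had the most counts of the stretch in the NextSeq oxidized libraries. It had 2002, 4018 and 6578 counts in the NextSeq control libraries and 242322, 246901 and 274931 in the oxidized ones. On the MiSeq it had 2156 and 1104 counts in control and 18753 and 17514 in oxidized libraries. It varied less among the controls than U3924, at 27.6, 49.6 and 87.1 CPM in the NextSeq libraries. The oxidized level was 19489 ± 1025 CPM (SD, n = 3) on the NextSeq and 12445 ± 696 CPM (SD, n = 2) on the MiSeq, again without overlap. The log2 fold change was 12.56 (SE 0.620, adjusted p = 4.00e-04) in the NextSeq and 8.43 (SE 0.390, adjusted p = 0.00693) in the MiSeq libraries. Among the known sites G3943 ranked 8th by mean oxidized CPM in the NextSeq and 15th in the MiSeq libraries.

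The order of these neighbours differed between the experiments. The count at G3943 was 2.84, 3.27 and 3.12 times that at U3924 in the NextSeq oxidized libraries, and 0.348 and 0.375 times in the MiSeq oxidized libraries. In control replicates 1, 2 and 3 it was 2.82, 4.19 and 0.207 times on the NextSeq, and in the MiSeq controls 0.376 and 0.265 times. Each oxidized library of an experiment gave the same order. Ligation of an end depends on its sequence, so levels at different sites were not read as extents of methylation.

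The site listed as G4043 did not pass the test in either experiment at the listed base. U4043 had 152, 150 and 3902 counts in the NextSeq control libraries and 0 in each oxidized library. The MiSeq controls had 3855 and 2255 counts there, and the oxidized libraries 150 and 0. A level of 0 in all 3 NextSeq oxidized libraries allows up to 3 steps of 50, or 150 counts over the group, which is 3.82 CPM. Taken against that limit and on library totals, U4043 was at least 4.80-fold lower after oxidation, a bound that rests on control replicate 3, since replicates 1 and 2 lay at 2.1 and 1.85 CPM, below the limit. With TMM the tests did not pass (adjusted p = 0.0859 in the NextSeq and 0.849 in the MiSeq libraries). The NextSeq test passed as lower with library totals (adjusted p = 0.0263), with the likelihood ratio test (0.00782) and with passage as a covariate (0.0267). U4043 ranked 106th of 106 known sites by mean oxidized CPM in the NextSeq and 101st in the MiSeq libraries.

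G4042, between the listed base and the counted target, had 100, 0 and 3556 counts in the NextSeq control libraries and 0 in each oxidized library, much as U4043 did. Its MiSeq counts were 10122 and 7514 in control, above those of U4043, and 100 and 200 in oxidized libraries. No test passed (adjusted p = 0.258 and 0.206).

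G4041, the target counted from SNORD102, did hold counts after oxidation. By mean oxidized CPM it ranked 366th of all 6939 positions in the NextSeq and 858th in the MiSeq libraries. It had 0, 150 and 2456 counts in the NextSeq control libraries and 350, 550 and 104 in the oxidized ones, or 26.4, 44.7 and 7.59 CPM. The MiSeq counts were 1810 and 2553 in control and 150 and 250 in oxidized libraries, or 41.1 and 84.0 against 95.6 and 184.7 CPM. The groups overlapped in the NextSeq libraries, because control replicate 3 reached 32.5 CPM, and did not overlap in the MiSeq libraries. NextSeq libraries gave a log2 fold change of 5.72 (SE 2.34, adjusted p = 0.120) and MiSeq libraries 1.44 (SE 0.572, adjusted p = 0.0986), so neither passed. With DESeq2's Wald test the NextSeq adjusted p was 0.0183, at a log2 fold change of 5.47, and with library totals it was 0.615, at 1.2. Within the 7 positions around G4041 in the NextSeq oxidized libraries, C4039 alone also had counts, with 100 counts in oxidized replicate 3. In the MiSeq oxidized libraries C4040 held 88.0%, G4042 75% and G4038 62.5% of the counts of G4041, all within a few steps of 50.

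C4053, for which U75 is the listed guide, was called in both experiments at very different levels. In the NextSeq libraries it had 0, 0 and 100 counts in control and 200, 352 and 300 in oxidized libraries. Both MiSeq control libraries were at 0, and the oxidized ones had 2209 and 1960 counts. The groups did not overlap in either experiment. The oxidized level was 21.9 ± 6.76 CPM (SD, n = 3) on the NextSeq and 1428 ± 28.1 CPM (SD, n = 2) on the MiSeq. The NextSeq log2 fold change was 10.20 (SE 2.66, adjusted p = 0.0405). It rests on about 4 to 7 steps of 50 per oxidized library, and the call was lost when any library other than control replicate 3 was left out (adjusted p = 0.0594 to 0.105). For the MiSeq libraries the adjusted p was 0.00693 and, against 150 counts over the control group, C4053 was at least 708-fold higher on library totals. By mean oxidized CPM it ranked 101st of the known sites in the NextSeq and 66th in the MiSeq libraries.

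**Figure D2:**
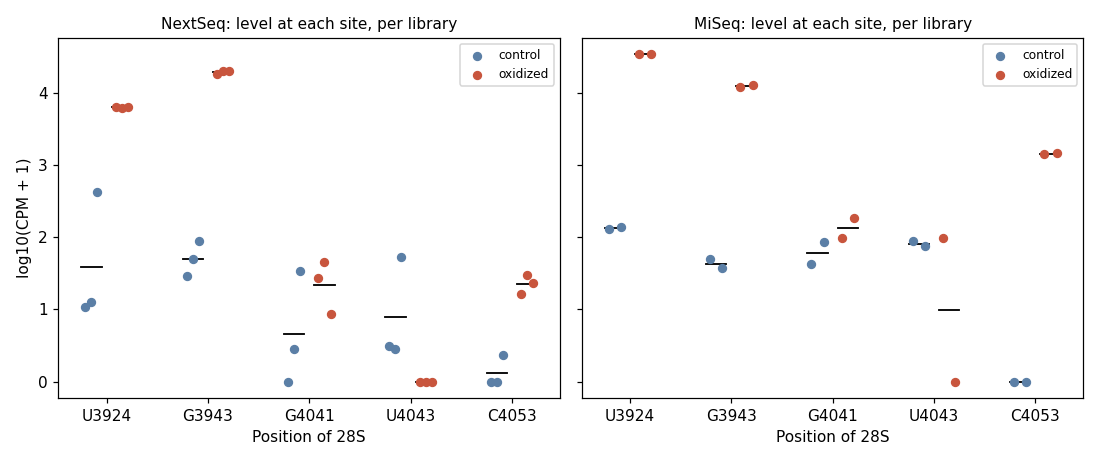
Level at the 4 known sites and at G4041 in each library, as log10 of CPM plus 1, for NextSeq (left) and MiSeq (right). Points are libraries and black bars the mean of the log values. The oxidized points lie above all controls at U3924, G3943 and C4053, overlap them at G4041 in the NextSeq libraries, and lie at 0 at U4043 in the 3 NextSeq libraries.

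The signal at U3924 and G3943 was concentrated on the named base in the NextSeq oxidized libraries. Relative to the summed counts of G3943, each of the 6 positions within 3 nt held 0.0196% to 0.144%. Around U3924, A3922 held 2.78% and G3921 2.0% of its counts, and the other 4 positions 0.143% to 0.845%. In the MiSeq oxidized libraries the flanks were fuller. There A3941 held 5.54%, G3940 4.29%, A3944 2.77%, A3942 1.52% and G3945 1.38% of the counts of G3943, and A3922 3.80% and C3925 1.55% of those of U3924. At C4053, U4054 held 5.87% of the NextSeq counts, which is a single step of 50 in 1 library, and A4052 4.80% and U4054 1.2% of the MiSeq counts. In the control libraries, summed over each group, all 6 positions within 3 nt of U3924 and of G3943 held more counts than the site itself. Each MiSeq control showed this, but no single NextSeq control did at both sites. G3943 exceeded G3940 and A3941 in replicate 1 (2002 against 650 and 1306). In replicate 2 it exceeded G3940, A3941, A3942 and G3945 (4018 against 1006 to 3865). U3924 exceeded G3921, C3923 and A3927 in replicate 3 (31710 against 19782 to 26806).

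**Figure D3:**
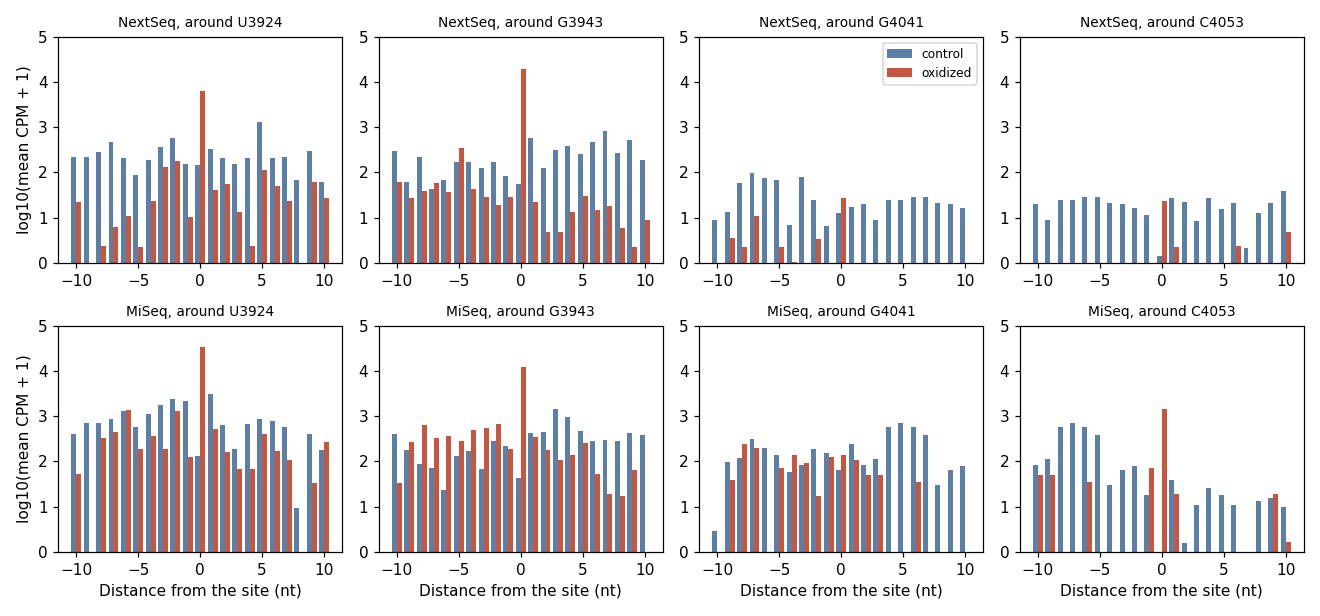
Mean level over libraries, as log10 of mean CPM plus 1, at the 10 positions on either side of U3924, G3943, G4041 and C4053, for NextSeq (top) and MiSeq (bottom) libraries. Bars start at 0 and 0 on the x axis is the named site. In the oxidized libraries the tallest bar of their windows is at U3924 and at G3943. C4053 stands clear of the positions within 3 nt, but its NextSeq bar is low (21.9 CPM). On this log scale the MiSeq windows of U3924 and G3943 also show flanking bars, which around G3943 are fuller on the upstream side.

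Apart from the sites, the highest oxidized levels in the NextSeq libraries were at G3938, A3922, G3921, U3929 and A3959. G3938, 5 nt upstream of G3943, had 1908, 3056 and 34334 counts in control and 3870, 5169 and 4779 in oxidized libraries. In CPM that was 26.3, 37.7 and 454.8 against 292.3, 420.5 and 349.0, so the groups overlapped only through control replicate 3. The log2 fold change of 5.48 (SE 1.13, adjusted p = 0.0359) passed the test but not the threshold of 7. Without control replicate 3 it was 7.10 (adjusted p = 0.00229), and G3938 was then called higher as the fourth position of the stretch. G3938 had 5770 and 4166 counts in the MiSeq control and 500 and 350 in the oxidized libraries, which gave a log2 fold change of 1.36 (SE 0.288, adjusted p = 0.0201).

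A3922, G3921 and A3959 changed direction with the scaling. A3922 had 22558, 22979 and 83700 counts in the NextSeq control and 2453, 2355 and 2106 in the oxidized libraries. The TMM log2 fold change was 2.52 (adjusted p = 0.0378), while the oxidized CPM, 153.8 to 191.6, lay below all controls, at 283.8 to 1109, and the log2 fold change with library totals was -1.68. G3921 went from 2.43 to -1.47 and A3959 from 2.48 to -1.51 on the same change of scale. U3929, which also had the highest mean control CPM, did not pass the test in the NextSeq libraries (log2 fold change 0.29, adjusted p = 0.803).

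Of 279 positions tested in the NextSeq libraries, 10 (3.58%) were higher at any size with an adjusted p under 0.05, against 3.02% of all positions. They are U3924, G3943 and C4053 with G3921, A3922, C3936, G3938, A3942, U3956 and A3959. With library totals alone, 5 of the 10 had a log2 fold change below 0, namely G3921, A3922, A3942, U3956 and A3959. On the MiSeq, 21 of 278 (7.55%) were higher at any size, against 10.6% of all positions, and none of the 21 changed sign with library totals. Of these 21, 8 formed an unbroken run from C3934 to A3941, just upstream of G3943, with log2 fold changes from 0.92 at C3934 to 4.29 at G3937. In both experiments U3924, C3936, G3938, G3943, A3959 and C4053 passed. With library totals alone, U3924 and G3943 were the 2 of these 6 that still passed as higher in the NextSeq libraries, and C3936 (log2 fold change 0.50, adjusted p = 0.721) and G3938 (1.03, adjusted p = 0.427) did not.

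C3936 and A3935, which lie 7 and 8 nt upstream of G3943, had low levels in comparison with that site. The study lists both for its MiSeq pilot, where its cutoff was a log2 fold change above 7. It regarded the unannotated sites of that pilot as likely false positives. Neither position was called higher here. A3935 had 450, 704 and 47991 counts in the NextSeq control and 700, 400 and 352 in the oxidized libraries. The high control was replicate 3, and the log2 fold change was 2.04 (SE 1.55, adjusted p = 0.382), or 5.96 (adjusted p = 0.0140) without it. MiSeq counts at A3935 were 3010 and 3109 in control and 807 and 1050 in oxidized libraries, with a log2 fold change of 3.19 (SE 0.393, adjusted p = 0.00693). C3936 had 752, 300 and 8275 counts in the NextSeq control and 654, 1007 and 602 in the oxidized libraries, with a log2 fold change of 4.96 (SE 1.24, adjusted p = 0.0377), and of 6.69 without control replicate 3. Its MiSeq counts were 3305 and 2061 in control and 503 and 450 in oxidized libraries, with a log2 fold change of 2.44 (SE 0.299, adjusted p = 0.00693).

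Downstream of G3943 the oxidized libraries were sparse. The 97 positions from 3944 to 4040, with a GC content of 78.4%, held 35.4% to 40.3% of the counts of the stretch in NextSeq control and 1.85% to 2.81% in NextSeq oxidized libraries. The 126 positions from 4054 to 4179, with a GC content of 74.6%, held 24.2% to 32.8% in control and 0.559% to 0.685% in oxidized libraries. The 9 positions from 4044 to 4052, with a GC content of 33.3%, held 0.0865% to 0.913% in NextSeq control libraries and no count in any NextSeq oxidized library. In the MiSeq oxidized libraries these 9 positions had 300 and 150 counts. The share of the positions upstream of G3943 fell too. The 24 positions before U3924 held 21.3% to 21.7% in NextSeq control and 2.01% to 2.82% in NextSeq oxidized libraries. The 18 between U3924 and G3943 held 9.96% to 12.03% in NextSeq control and 3.28% to 3.75% in NextSeq oxidized libraries. In the MiSeq oxidized libraries the 24 positions held 11.1% and 10.8%, and the 18 held 8.06% and 6.57%. Among oxidized libraries, the 18 positions thus held more than the 24 on the NextSeq only.

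In the NextSeq libraries 126 of 279 tested positions (45.2%) had 0 counts in every oxidized library, against 30.8% of all positions tested. For the MiSeq it was 132 of 278 (47.5%), against 48.6% of all. Positions with an adjusted p under 0.05 and a negative log2 fold change were called lower. In the NextSeq libraries 55 of 279 (19.7%) were called lower, against 18.8% of all, and 54 of the 55 had no counts in any oxidized library. The MiSeq count was 152 of 278 (54.7%), against 51.6% of all. Without NextSeq control replicate 1 or 2 the counts were 0 and 2 (114 and 119 at an unadjusted p under 0.05, against 110 with all libraries), and without MiSeq control replicate 1 or 2 they were 3 and 2. In CPM, every oxidized library lay below every control at 234 of 279 positions (83.9%) in the NextSeq libraries, against 85.6% of all positions tested, and at 208 of 278 (74.8%) in the MiSeq libraries, against 71.7%.

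The smallest fitted log2 fold changes were at C3989, G4098 and G3915, which had no counts in the NextSeq oxidized libraries. C3989 had 60347, 69787 and 5779 counts in the control libraries, G4098 had 31978, 34348 and 8630, and G3915 had 17917, 19772 and 13197. All 3 passed the test (adjusted p = 0.0359 each), and here control replicate 3 was the low one. On the MiSeq G4098 and G3915 were again at 0 in both oxidized libraries, with 17647 and 13774 and with 33481 and 19621 counts in control, and passed (adjusted p = 0.00693 each). C3989 had 2804 and 1754 counts in MiSeq control and 200 and 100 in oxidized libraries, and did not pass (adjusted p = 0.128).

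The control libraries themselves were uneven along the stretch. The 3 highest positions by mean control CPM in the NextSeq libraries were U3929, G4085 and C3908. Control replicates 1, 2 and 3 gave G4085 129908, 149553 and 4060 counts. U3929 had 114602, 127664 and 56989, and C3908 87513, 97910 and 29435. The passage 6 controls were therefore higher at all 3, by the widest margin at G4085. G4085 was low in the MiSeq control libraries, at 2000 and 2554 counts.

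By base, G took 45.0%, 45.1% and 31.9% of the 3′-ends of the stretch in NextSeq control replicates 1, 2 and 3, and 26.6% and 27.1% in the MiSeq controls. A took 14.6%, 14.1% and 24.4% in the NextSeq and 28.6% and 28.8% in the MiSeq controls. Control replicate 3 lay between the other NextSeq controls and the MiSeq controls for G and A. It lay outside both for U, at 18.2% against 10.5% and 10.7% in the other NextSeq and 12.8% and 12.6% in the MiSeq controls, and for C, at 25.4% against 29.8% and 30.1%, and 32.0% and 31.5%. After oxidation G took 70.3% to 73.0% in the NextSeq libraries, mostly through G3943, and U took 51.1% to 52% in the MiSeq libraries, mostly through U3924.

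C4053 and G3943, and U3924 outside control replicate 3, were low, over 10 neighbours per side, in the control libraries relative to their surroundings. The control gap was taken as the site's count divided by the median of its neighbours, 10 per side with known sites left out, and is given without a test. At C4053 it was 0, 0 and 0.0303 in NextSeq control replicates 1, 2 and 3 and 0 in both MiSeq controls, beside neighbour medians of 150, 150, 3302, 1054 and 808 counts. With medians of 150 counts, the value of 0 in NextSeq replicates 1 and 2 spans only about 3 steps of 50. At G3943 it was 0.278, 0.541 and 0.243 in the NextSeq and 0.189 and 0.119 in the MiSeq controls. With 5 neighbours per side it was 0.532, 1.16 and 0.189 in the NextSeq controls, so that replicate 2 then showed no gap. At U3924 it was 0.0497, 0.0606 and 1.29 in the NextSeq and 0.175 and 0.208 in the MiSeq controls, so that control replicate 3 showed no gap there. At U4043 the values were 1.52, 1.5 and 0.770, and 0.597 and 0.542, and at G4041 they were 0, 1.5 and 0.484, and 0.280 and 0.614, with neighbour medians of 100 counts in NextSeq replicates 1 and 2. G4042 in the MiSeq controls exceeded its surroundings, at 1.83 and 1.88.

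The experiments were compared by the interaction of oxidation and experiment over all 10 libraries in edgeR, a test chosen after seeing the data. It passed at 23 of 279 positions of the stretch (8.24%), against 8.20% of all positions tested, and among the sites it passed at G3943 alone. There the log2 fold change was higher on the NextSeq by 3.72 (SE 0.608, adjusted p = 0.0136), beside a median difference over all positions of 0.88. With library totals in place of TMM the difference at G3943 was 0.28 (SE 0.766, adjusted p above 0.99), beside a median of -1.22. U3924 and C4053 did not pass under either scaling, and the difference at C4053 was -8.65 (SE 3.29, adjusted p = 0.144).

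**Figure D4:**
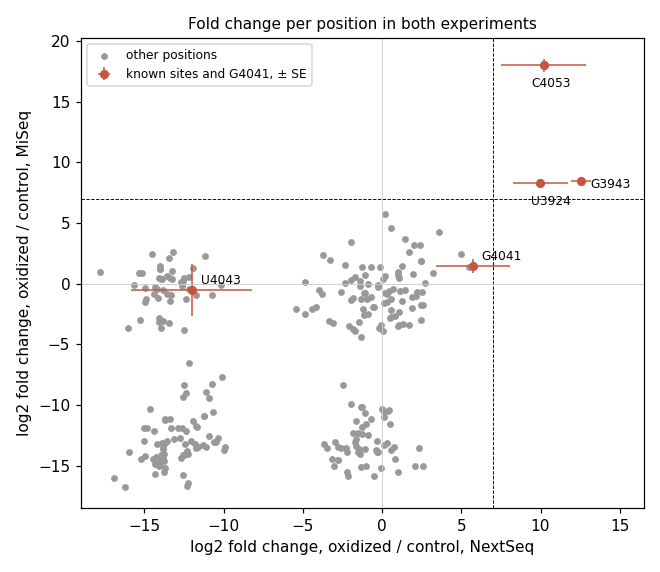
Log2 fold change of oxidized over control libraries (edgeR, TMM) per position in the NextSeq (x axis) and MiSeq (y axis) libraries, with dashed lines at the threshold of 7 and ± SE at the known sites and G4041. U3924, G3943 and C4053 lie past the threshold on both axes, and G4041 at 5.72 and 1.44. All values below -6 (126 positions in the NextSeq and 132 in the MiSeq fit) are positions with 0 counts in every oxidized library, where the fitted value depends on the prior count.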

How the data were processed

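Deposited counts, made by the authors without normalization, are sense alignments with a 3′-end at each position of 18S and 28S. Per the study's methods and the submitters' notes, reads were trimmed with cutadapt 1.12, PCR duplicates were collapsed by a 6-base randomer, and reads were aligned with TopHat2 2.1.1 to hg19 and converted with SAMtools 0.1.19 and BEDtools. Other lines of the files held 0 counts and were dropped. Deposited tables of the authors' DESeq2 comparisons (fold changes and p-values) were not used.

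Known sites and snoRNA names, but no values, came from the study's site table. Oxidized and control libraries were compared with edgeR 4.0.16 in R 4.3.3 (TMM, quasi-likelihood test, positions with at least 1 count, Benjamini-Hochberg over all positions), separately for NextSeq and MiSeq. DESeq2 1.42.0 served as an alternative. The tests were first run on simulated counts, which lacked the steps of 50 and the full spread of the NextSeq libraries. That run does not show how often the calls made here are wrong. The stretch, the sites, the lists and the adjusted p threshold were chosen with earlier results of these data known. The fold change threshold had been set by the study on known sites in the NextSeq data.

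Positions named were the known sites, 4041 and 4042, and positions within 3 nt of a site with over 1% of its oxidized counts. Positions called higher in either experiment or listed by the study for its MiSeq pilot were named too. By NextSeq values, the 5 other positions with the highest oxidized CPM and the 3 highest control positions were added. So were the positions with the 3 largest and the 3 smallest NextSeq log2 fold changes. Positions passing at any size were listed after their values were seen. Intervals and limits cover counting error only. A step of 50 counts was taken as the unit of counting, and 3 steps as the limit that 0 allows.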

Additional observations from a re-analysis of the deposited data

Results flagged for a closer look

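The change on oxidation differed between the NextSeq and MiSeq experiments at 3 of the named positions, by the interaction test in edgeR over all 10 libraries (TMM). Over all positions tested, 8.2% passed. G3921 and C3989 were named for their NextSeq values, so the direction of their differences partly follows from that choice. G3943 is a known site that also had the largest NextSeq log2 fold change of the stretch. At G3943 the log2 fold change was higher by 3.72 on the NextSeq (adjusted p = 0.0136), and all 5 oxidized libraries lay above all controls of their experiment. At G3921 it was higher by 4.94 on the NextSeq (adjusted p = 0.0199). With library totals in place of TMM neither difference passed, at 0.28 (adjusted p above 0.99) for G3943 and 1.74 (adjusted p = 0.182) for G3921. At C3989 it was lower by 18.66 on the NextSeq, a difference of -18.66 (adjusted p = 0.0227), where the NextSeq oxidized libraries were at 0 and the MiSeq ones at 200 and 100 counts, so that its size depends on the prior count. That difference passed with library totals too (adjusted p = 0.00966). The experiments differed in passage, sequencer, depth and amount of starting RNA, and these cannot be told apart.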

How the results depend on the processing

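U3924 and G3943 were called higher in every NextSeq alternative except library totals (1 position, G3943) and an adjusted p under 0.0001 (0 positions with edgeR, 3 at an unadjusted p under 0.05, 3 with DESeq2 at 0.0001). The NextSeq count was 2 to 4 when each library was left out. In the MiSeq libraries it was 3 in all but an adjusted p under 0.0001 (0, against 3 with DESeq2) and the replicate block (0, 3 at an unadjusted p under 0.05). Deviations of same-numbered libraries correlated at 0.028, -0.021 and 0.009 in the NextSeq and -0.009 in the MiSeq libraries. These values cannot decide whether the numbers pair the libraries. With 2 libraries per group the MiSeq values can only mirror each other, and replicate 3 of both NextSeq groups shares passage 4. With the replicate block, positions called lower fell from 55 to 2 in the NextSeq and from 152 to 0 in the MiSeq libraries (72 at an unadjusted p under 0.05), while 3 NextSeq positions were called higher. NextSeq positions called lower were 183 with library totals, 114 with the likelihood ratio test, 99 with passage as a covariate, 92 with passage 6 libraries alone, 0 with counts divided by 50 (65 at an unadjusted p under 0.05, 81 called with DESeq2 on counts as deposited) and 0 to 82 without each library. MiSeq positions called lower were 2 to 192 without each library. The difference in the share of all counts lay between -1.28 and -0.21 percentage points, and that in the share at known sites between 90.5 and 91.2, without each library. The mean NextSeq control gap at G3943, 0.354, was 0.627 with 5 positions on each side. That at U4043, 1.26, was 2.27 with 5 and 0.709 with 20, and 0.661 at G4041. U4043 in the MiSeq libraries had a log2 fold change of -0.51, and of 0.59 without oxidized replicate 2 and -13.99 without oxidized replicate 1. The difference between experiments at U3924, 1.47, was -2.58 with library totals. DESeq2 gave no adjusted p for U4043 in the NextSeq libraries. The causes of these shifts were not tested. A step of 50 counts is 31.9 to 36.9 CPM in the MiSeq oxidized libraries, so the NextSeq levels at C4053 (21.9 CPM) and G4041 (26.3 CPM) lie under a single step there.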
